A study of Mus musculus with 20 samples.

Results

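The genes described here are the oligoadenylate synthetase (OAS) genes Oas1a, Oas1b, Oas1c, Oas1g, Oas2, Oas3, Oasl1 and Oasl2, which were chosen by symbol and make up 8 of the 55487 genes in the count table. All 8 passed the filter on low counts that left 12799 genes for testing. RNA was sequenced from 20 cultures of BV-2 cells, an immortalised wild-type microglial line established from brain cultures of juvenile C57BL/6 mice, in 4 groups of 5. Young BV-2 microglia were low-passage cells, and aged BV-2 microglia were cells that had been subcultured for months, frozen and thawed together with the young aliquots. Each kind was left untreated or treated with bacterial lipopolysaccharide (LPS) at 100 ng/ml for 6 hours. All cultures come from 1 cell line, so aged means long cultivation in vitro, and time in culture and passage number cannot be told apart. Whether the aged cultures came from more than 1 long-term culture is not stated. Drift of a single stock therefore cannot be told apart from long cultivation either. The sample titles number the cultures of each group from 1 to 5, and cultures with the same number are called a batch here. Every batch thus holds 1 culture of each group, and values are listed below in the order of batches 1 to 5.

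The OAS proteins are sensors of double-stranded RNA. An active synthetase that binds such RNA joins ATP into short chains, 2′,5′-oligoadenylates (2-5A), which act as a messenger of the antiviral response and are broken down again by phosphodiesterases. The genes are known as interferon-stimulated genes: type I interferon acts through a complex with STAT2 and IRF9, which binds the interferon-stimulated response element, a pair of GAAA-type repeats near the start of its target genes. In microglia and other macrophages, LPS acts through TLR4, and the TRIF branch of that pathway (gene Ticam1) leads to interferon-beta.

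The genes lie in clusters on mouse chromosome 5 (GRCm38, GENCODE annotation). Oas2 is at chr5:120730333-120749853 and Oas3 at chr5:120753098-120777661, both on the minus strand. They are followed by Oas1c at chr5:120800194-120812514 on the minus strand and Oas1b at chr5:120812635-120824163 on the plus strand, which stand head to head with 120 bases between them. Oas1g at chr5:120876142-120887613 and Oas1a at chr5:120896256-120907521 lie further along on the minus strand. Oas1e, Oas1f, Oas1h and Oas1d, which were at or near 0 reads, also lie in this cluster. Oasl2 at chr5:114896936-114912234 and Oasl1 at chr5:114923240-114937915 are neighbours on the plus strand elsewhere on the chromosome. All are annotated as protein coding except Oas1b, a polymorphic pseudogene in this annotation, whose product is known to be truncated in many laboratory strains.

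Promoter windows (250 bases before to 50 after the start, RefSeq, GRCm38.p6) were at hand for 6 of the 8 genes, without Oas1b and Oas2. Both strands were searched for GAAANNGAAA, the core of the interferon-stimulated response element, and for the shorter AANNGAAA, the core of an IRF site, which every GAAANNGAAA match also holds. The longer motif occurs in 3.44% of all 32851 promoter windows and the shorter in 23.9%. The stretches of 60 bases below are shown because they carry the matches that the family shares and those in which it differs. They are written 5′ to 3′ on the strand of the gene, and capitals mark the run of motif matches.
Oas1a, chr5:120907526-120907585, minus strand: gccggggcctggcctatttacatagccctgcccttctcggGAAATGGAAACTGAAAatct
Oas1g, chr5:120887614-120887673, minus strand: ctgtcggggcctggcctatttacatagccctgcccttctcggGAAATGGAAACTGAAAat
Oas1c, chr5:120812575-120812634, minus strand: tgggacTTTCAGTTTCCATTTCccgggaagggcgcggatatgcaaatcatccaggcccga
Oas3, chr5:120777700-120777759, minus strand: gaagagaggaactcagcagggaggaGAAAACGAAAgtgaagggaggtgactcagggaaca
Oasl1, chr5:114923059-114923118, plus strand: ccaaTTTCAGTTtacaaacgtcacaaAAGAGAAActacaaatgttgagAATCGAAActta
Oasl2, chr5:114896874-114896933, plus strand: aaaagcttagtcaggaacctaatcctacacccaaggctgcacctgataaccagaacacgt

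Oas1a, Oas1g and Oas1c carried the same run of 16 bases, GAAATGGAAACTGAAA, with 2 overlapping GAAANNGAAA matches. In Oas1c the run is on the opposite strand, and it ends 7 bases before the start of Oas1b, so that it reads in the direction of Oas1b. Oas3 held 1 such match, GAAAACGAAA. Oasl1 held no GAAANNGAAA and 3 matches of AANNGAAA. Oasl2, which had the largest response to LPS below, held neither string in its window. A match or its absence describes only the letters of the window, and no binding was measured.

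Total counts per library were 11371508 to 16829292, and a floor of 3 counts corresponds to 0.165 to 0.296 CPM (counts scaled to library size, TMM-adjusted), for counting error only. All 12 microglia and macrophage markers had over 3 counts in at least 1 of the 20 libraries, with a summed level of 2550 to 4660 CPM. P2ry12, a marker of homeostatic microglia, had at most 31 reads in any library and stood at 0 to 2 reads in the aged LPS-treated ones. Of 5 markers each, neurons had 0, astrocytes 1, lymphocytes 1, endothelial cells 2 and oligodendrocytes 3 over 3 counts in at least 1 of the 20 libraries. The endothelial list summed to 308 to 347 CPM in untreated and 325 to 405 CPM in LPS-treated libraries, nearly all of it Flt1 (group means of 320 to 368 CPM). The oligodendrocyte list summed to 15.5 to 23.2 CPM over all libraries, mostly Cnp (group means of 16.7 to 19.4 CPM). The defining genes Cldn5, Cdh5, Tek, Mog and Mag stayed at or below 3 counts everywhere. Any part of these cell types in the results below was not tested. Among the libraries, untreated young culture 1 had the highest level of its group for 6 of the 8 OAS genes and LPS-treated aged culture 3 for 5 of the 8. Results of the OAS genes that rest on them are therefore given with and without them. Values of the sensor, interferon and interferon-stimulated gene lists further below include both libraries and are not given without them.

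Reads of all 8 genes were found in every untreated library of both ages, and the order of their levels was much the same. Oasl2 had only 2 to 9 reads per library in aged cultures, which reaches below the floor of 3 counts. Compared per kilobase of exon, Oasl1, a protein without synthetase activity that carries ubiquitin-like domains and is known to restrain translation of Irf7, stood highest, at 14.0 ± 3.37 CPM per kb (SD, n = 5) in young and 11.4 ± 1.23 in aged cultures. Oas1a, an active synthetase, came next at 4.53 ± 0.502 and 3.74 ± 1.05 CPM per kb, with no overlap with the gene ranked above or below it in either group. Oas3, which binds long double-stranded RNA, and Oas1g, another active synthetase, overlapped each other at 2.89 ± 0.393 and 2.21 ± 0.223 CPM per kb in young cultures. Oas2, Oas1c, Oas1b and Oasl2 stood below them, and Oasl2, a synthetase with ubiquitin-like domains, was the lowest of the 8 in both groups, at 0.358 ± 0.249 CPM per kb in young and 0.0536 ± 0.0264 in aged cultures. In young cultures the libraries of Oasl2 overlapped those of Oas1b, the gene ranked above it, and in aged cultures they did not.

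Oas1a and Oas1g could be told apart only in part. In the transcripts, 57.6% of the windows of 50 bases in Oas1a and 45.7% of those in Oas1g also occur in another gene, nearly all of them in the other of the pair. The share was 9.82% for Oas1c, 2.78% for Oas1b, 0.31% for Oas3, 0.138% for Oasl2 and 0 for Oas2 and Oasl1. The counter's treatment of reads with several alignments is not given in the sources used here. Reads from the shared parts may thus have been left out or counted for both genes. The summed level of Oas1a and Oas1g, which depends on that treatment too, is given beside the single ones. It was 13.7 ± 1.14 CPM in young untreated, 118 ± 6.66 in young LPS-treated, 11.4 ± 3.02 in aged untreated and 68.7 ± 15.9 in aged LPS-treated cultures (SD, n = 5 each). Levels per kilobase of Oas1a and Oas1g, and the ranks and shares built on them, carry the same limit. Oas1c also overlaps an antisense gene, Gm43069, by 227 exon bases and Oasl1 overlaps Gm13822 by 38, and whether strand was used in counting is likewise not given.

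**Figure D1:**
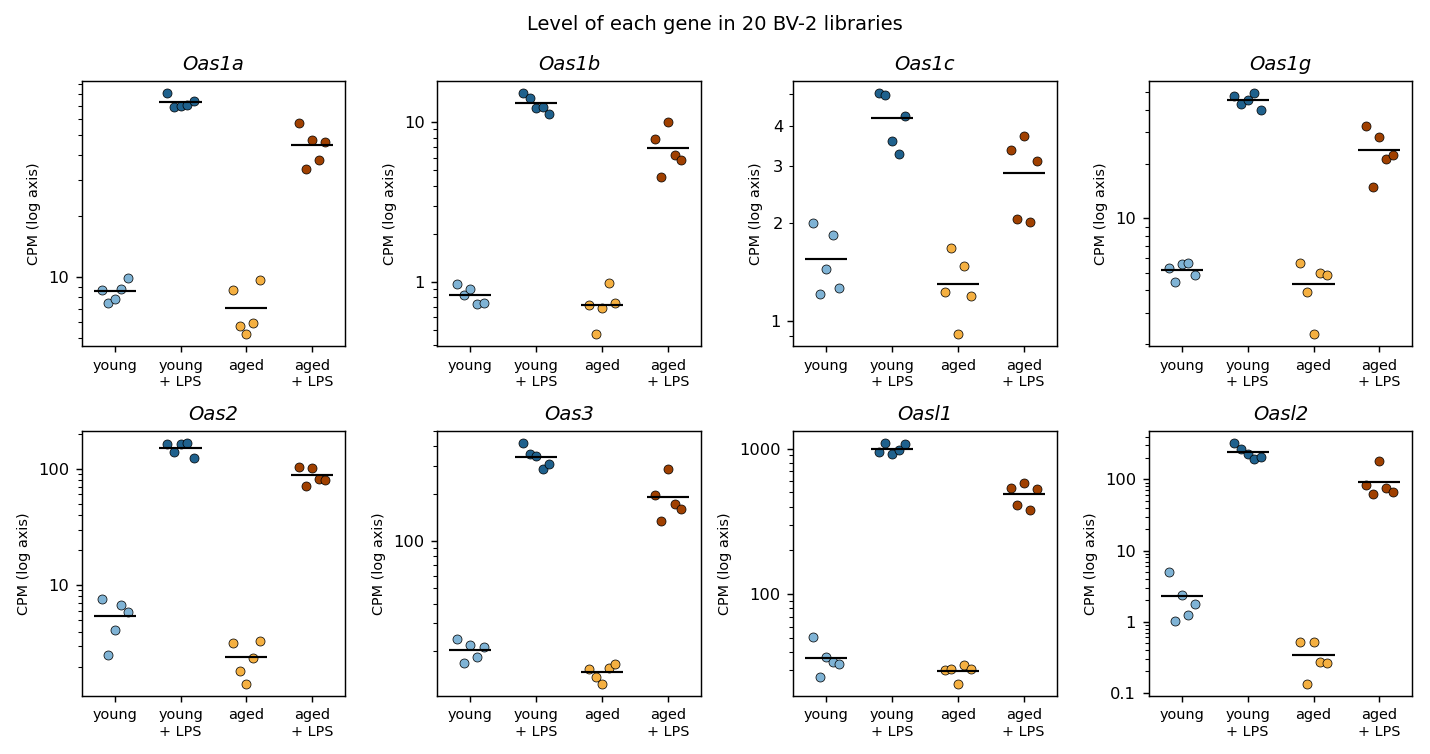
Level of each OAS gene in CPM (log axis) in 20 BV-2 libraries, 5 per group in the order of batches 1 to 5 from left to right, with the group mean as a line. LPS-treated libraries stood above untreated ones for all 8 OAS genes, and the aged LPS-treated libraries sat lower than the young ones, with overlap for Oas1c and Oas3.

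The untreated comparison set aged against young cells without LPS. Oas2 and Oasl2 were lower in aged than in young BV-2 microglia. All 8 fold changes were below 0, with a median log2 value of -0.287 against -0.0136 over all genes tested, but only these 2 of the 8 passed the test (edgeR quasi-likelihood F-test, adjusted p below 0.05), beside 7.81% of all genes called lower and 3.71% called higher. In bulk RNA, fewer cells that express a gene and less RNA per cell cannot be told apart.

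Oas2, which makes longer 2-5A chains, measured 7.66, 2.49, 4.11, 6.79 and 5.93 CPM in the young cultures and 3.17, 1.82, 1.43, 2.36 and 3.33 CPM in the aged ones. Young culture 2 lay among the aged values, so the groups overlapped, but within every batch the aged culture was the lower. The log2 fold change of Oas2 was -1.16 ± 0.269 (SE, 2.23-fold lower, adjusted p = 0.00699), and it missed the threshold without batch 4 (adjusted p = 0.0562). Oasl2 measured 4.97, 1.02, 2.35, 1.25 and 1.80 CPM in young and 0.517, 0.135, 0.514, 0.275 and 0.266 CPM in aged cultures. The groups did not overlap, although the aged values rest on only 2 to 9 reads per library and young culture 1 stood at 3.09 times the mean of the other 4. The log2 fold change of Oasl2 was -2.68 ± 0.741 (6.40-fold lower, adjusted p = 0.0213). Without young culture 1 it was -2.20 with an adjusted p of 0.0805, and the call was also lost without batch 1 (adjusted p = 0.102), batch 2 (0.0505), batch 4 (0.0552) or batch 5 (0.0555).

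Oas3 measured 23.7, 16.8, 21.9, 18.4 and 21.3 CPM in young and 15.3, 13.7, 12.4, 15.7 and 16.5 CPM in aged cultures. Every aged value was below every young one, the second gene of the 8 without overlap (6.63% of all genes tested were lower without overlap), yet its log2 fold change of -0.473 ± 0.175 did not pass (adjusted p = 0.0837). It passed under 4 of 14 settings, namely with DESeq2 (adjusted p = 0.0364), without the filter on low counts (0.0392), with only the 2 groups in the fit (0.00935) and without LPS-treated aged culture 3, a library of neither group (0.0172). Under the other settings the adjusted p was 0.0557 to 0.211. The other 5 genes overlapped between the ages and ranged from -0.195 (Oas1b) to -0.289 (Oasl1) on the log2 scale, with adjusted p of 0.191 to 0.737. For Oas1b, a gene of 7 to 18 reads per untreated library, the 95% interval of the difference ran from -0.791 to 0.401, and for Oas1c, with 16 to 29 reads, from -0.732 to 0.221.

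LPS raised all 8 genes in young BV-2 microglia, none of which overlapped with the untreated cultures. Of all genes tested, 31.2% rose and 23.9% were higher without overlap. The median log2 fold change of the 8 genes was 4.02, against -0.0106 over all genes. The responses spanned a wide range, from 2.70-fold for Oas1c (log2 1.43 ± 0.203, adjusted p = 1.86e-06) to 108-fold for Oasl2 (6.76 ± 0.342, adjusted p = 7.77e-14). Oas2 and Oasl1 rose alike in size, 28.0-fold (4.81 ± 0.194) and 27.4-fold (4.78 ± 0.148). Oas3 rose 16.9-fold (4.07 ± 0.169) and Oas1b 15.6-fold (3.96 ± 0.200). The paralogs Oas1g and Oas1a, which share much of their transcript sequence, rose 8.76-fold (3.13 ± 0.183) and 8.51-fold (3.09 ± 0.146). Oas1a, Oas1g and Oas1c, the genes with the same run of 16 bases in their promoter windows, had the 3 smallest fold changes of the 8, at both ages. That run also ends 7 bases before the start of Oas1b, which rose 15.6-fold. No window was at hand for Oas1b or Oas2, and a link between the run and the response was not tested.

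In aged BV-2 microglia LPS also raised all 8 genes, again with no overlap with the untreated cultures, while 27.5% of all genes tested rose and 21.0% were higher without overlap. The median log2 fold change was 3.47 against 0.000511 over all genes. The order was the same at both ends, with Oas1c at 2.21-fold (1.14 ± 0.214, adjusted p = 9.78e-05) and Oasl2 at 264-fold (8.04 ± 0.447, adjusted p = 7.38e-13). Because its untreated aged libraries hold 2 to 9 reads, the fold of Oasl2 is less precise than those of the other 7. Oas2 rose 36.4-fold, Oasl1 16.4-fold, Oas3 13.0-fold, Oas1b 9.45-fold, Oas1a 6.41-fold and Oas1g 5.55-fold. Scaling by library sizes alone moved the median of all genes to -0.231 in young and -0.16 in aged cultures, so that the share of calls that were higher fell from 48.2% to 27.3% and from 50.6% to 28.4%, and all 8 OAS genes still rose in both.

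**Figure D2:**
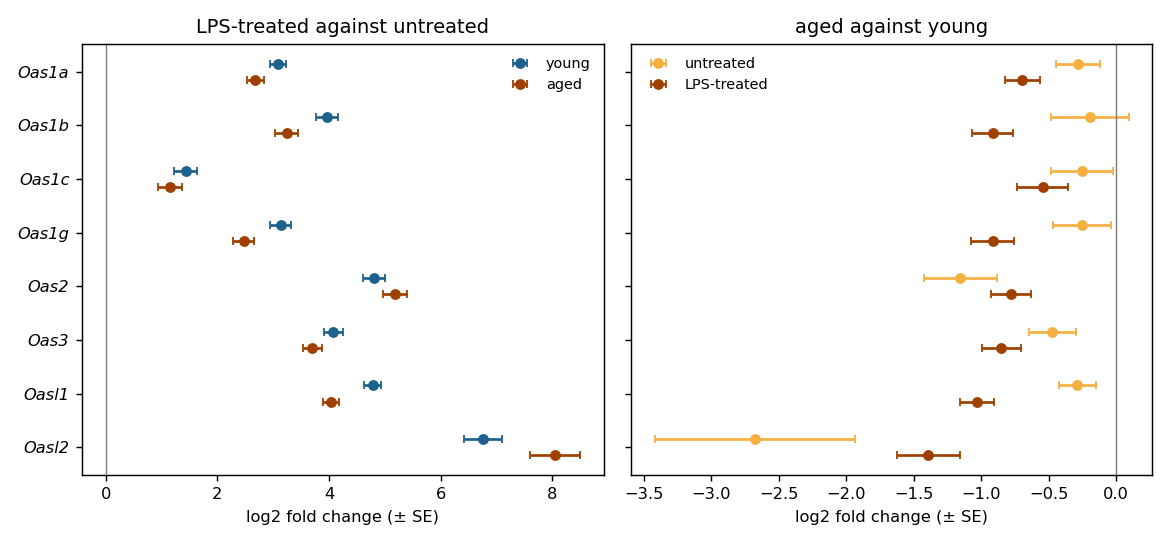
Log2 fold change with its SE for each OAS gene, LPS-treated against untreated in young and aged BV-2 microglia on the left and aged against young, untreated and under LPS, on the right. All OAS genes lie right of 0 on the left, with Oas1c the smallest and Oasl2 the largest, and left of 0 on the right.

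The 4 groups share libraries between these comparisons, so the level reached under LPS was compared directly. Under LPS all 8 genes were lower in aged than in young BV-2 microglia, where 15.0% of all genes tested were called lower. Libraries of 6 of the 8 did not overlap, against 8.16% of all genes. The median log2 fold change was -0.882, against 0.00846 over all genes, and the single values lay between -0.545 (Oas1c) and -1.39 (Oasl2).

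Among the active synthetases, Oas1a measured 80.9, 69.1, 69.7, 70.3 and 73.8 CPM in young LPS-treated cultures and 57.9, 34.2, 47.7, 37.9 and 46.4 CPM in aged ones. The groups were apart, and the log2 fold change was -0.695 ± 0.127 (1.62-fold lower, adjusted p = 0.000248). Oas1g measured 48.0, 43.4, 45.4, 49.6 and 40.2 CPM in young and 32.7, 14.8, 28.1, 21.4 and 22.5 CPM in aged cultures, which did not overlap either, for a log2 fold change of -0.916 ± 0.158 (1.89-fold lower, adjusted p = 0.000136). Oas2 measured 163, 139, 161, 167 and 123 CPM in young and 103, 70.5, 102, 82.1 and 80.6 CPM in aged cultures. The highest aged library stayed below the lowest young one, and the log2 fold change of Oas2 was -0.778 ± 0.150 (1.72-fold lower, adjusted p = 0.000418).

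Oas3 measured 422, 358, 347, 285 and 309 CPM in young and 196, 134, 289, 173 and 161 CPM in aged LPS-treated cultures. Aged culture 3, at 1.74 times the mean of the other 4, reached above the lowest young culture, and the remaining 4 aged cultures were lower than every young one. The log2 fold change of Oas3 was -0.850 ± 0.145 (1.80-fold lower, adjusted p = 0.00012). Oasl2 measured 327, 266, 231, 193 and 208 CPM in young and 82.1, 63.2, 179, 76.3 and 65.5 CPM in aged cultures. Its groups did not overlap, but aged culture 3 came close to the young values at 2.49 times the mean of the other 4. The log2 fold change of Oasl2 was -1.39 ± 0.236 (2.62-fold lower, adjusted p = 0.000112).

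Oasl1, the most abundant of the family, measured 941, 1096, 914, 970 and 1070 CPM in young and 540, 407, 578, 381 and 532 CPM in aged LPS-treated cultures. No aged culture came near the young ones, and the log2 fold change was -1.03 ± 0.125 (2.05-fold lower, adjusted p = 2.67e-06). Oas1b measured 15.2, 14.2, 12.3, 12.5 and 11.3 CPM in young and 7.87, 4.54, 10.0, 6.27 and 5.79 CPM in aged cultures, apart from each other at -0.915 ± 0.153 (1.89-fold lower, adjusted p = 9.41e-05). Oas1c measured 5.04, 4.98, 3.59, 3.28 and 4.27 CPM in young and 3.37, 2.06, 3.72, 2.01 and 3.11 CPM in aged cultures. These overlapped, its log2 fold change of -0.545 ± 0.190 was the smallest of the 8 (adjusted p = 0.0349), and the call was lost with library sizes alone (adjusted p = 0.0562), without the filter (0.0677), with only the 2 groups in the fit (0.067) and without batch 1, 2, 4 or 5 (0.0681 to 0.221).

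Within batches, the aged LPS-treated culture was lower than the young one in 5 of 5 batches for 7 of the genes. For Oas1c it was lower in 4 of 5, with batch 3 at 0.0528 on the log2 scale. Batch 3 had the smallest difference for Oas1b (-0.300), Oas1c, Oas3 (-0.264), Oasl1 (-0.660) and Oasl2 (-0.368), and batch 2 the largest difference for all but Oas2, where batch 4 was lowest at -1.02. For Oasl2 the 5 batches ran from -2.07 to -0.368. Leaving out LPS-treated aged culture 3, an alternative chosen after its values were seen, kept all 8 genes called lower and moved the log2 fold change of Oasl2 from -1.39 to -1.77 (adjusted p = 1.08e-07) and that of Oas3 from -0.850 to -1.05 (adjusted p = 3.57e-07).

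**Figure D3:**
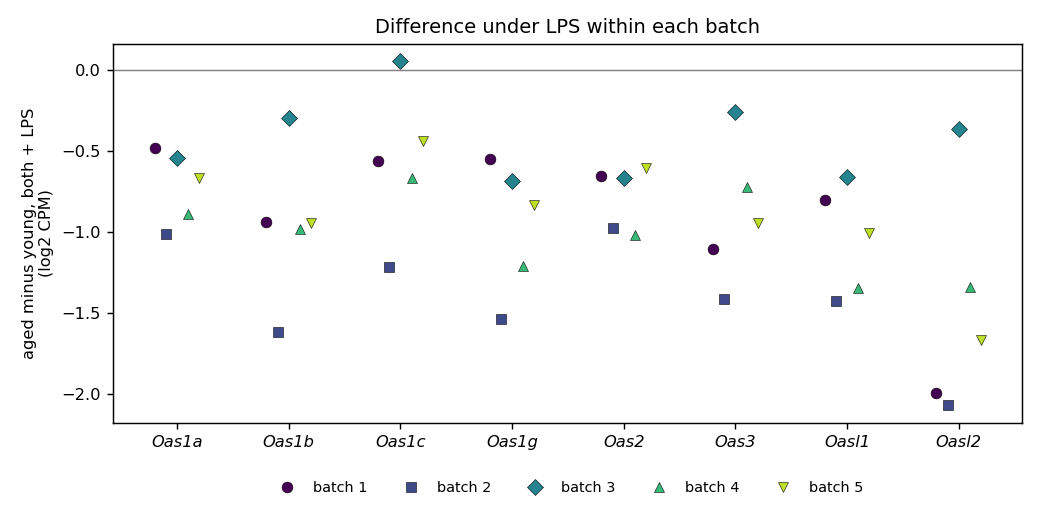
Difference in log2 CPM between the aged and the young LPS-treated culture of each batch, 1 point per batch, for the OAS genes. All points lie below 0 except batch 3 for Oas1c, at 0.0528, and batch 3 is the point nearest to 0 for 5 of the 8 OAS genes.

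Whether the response to LPS itself differed with age was tested by the interaction, the log2 fold change in aged minus that in young cultures. Oasl1 was the only one of the 8 genes to pass, beside 2.27% of all genes called in this direction. Untreated, Oasl1 measured 50.6, 27.0, 37.2, 34.3 and 33.0 CPM in young and 30.4, 30.8, 24.3, 32.9 and 30.6 CPM in aged cultures, groups that overlapped. The response of Oasl1 was 27.4-fold in young and 16.4-fold in aged cultures, a difference of -0.745 ± 0.186 on the log2 scale (adjusted p = 0.017). Within batches the difference in log2 CPM was negative in all 5 but very small in batches 1 (-0.0666) and 3 (-0.0503). It was -1.62, -1.29 and -0.904 in batches 2, 4 and 5. The call was lost without batch 2 (adjusted p = 0.198), batch 4 (0.107) or batch 5 (0.0965).

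For the other 7 genes the difference in response did not pass, and its 95% interval included 0 for all but Oas1b and Oas1g. Oas1b had a difference of -0.720 ± 0.330 (adjusted p = 0.228), Oas1g of -0.659 ± 0.267 (0.162), Oas1a of -0.410 ± 0.209 (0.288) and Oas3 of -0.377 ± 0.227 (0.399). Oas3 passed without LPS-treated aged culture 3 (adjusted p = 0.0355), and Oas1g (0.0486) and Oas3 (0.0489) passed without batch 3. Oas2 and Oasl2, the pair that was lower before treatment, had differences above 0, of 0.377 ± 0.309 (adjusted p = 0.572) and 1.29 ± 0.826 (0.437). The interval for Oasl2 ran from -0.428 to 3.00, while within batches the difference was above 0 in 5 of 5, from 0.0192 to 1.57 on log2 CPM.

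The make-up of the family shifted with LPS. The summed level of the 8 genes was 26.2 ± 4.73 CPM per kb in young untreated and 570 ± 29.0 in young LPS-treated cultures, and 20.6 ± 2.86 and 287 ± 55.6 in the aged ones (SD, n = 5 each). Oasl1 held 52.9% ± 3.36 of the sum in young untreated cultures and 67.1% ± 3.49 after LPS, with 55.8% ± 3.94 and 65.3% ± 3.42 in aged ones. Oas1a fell from 17.6% ± 2.79 to 6.78% ± 0.486 in young and from 18.0% ± 3.35 to 8.31% ± 0.906 in aged cultures, with no overlap at either age. Oasl2 went the other way, from 1.28% ± 0.642 to 6.73% ± 1.32 in young and from 0.270% ± 0.161 to 4.96% ± 1.72 in aged cultures. These shares are a description of levels, with no test.

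Under LPS the order of levels per kilobase was Oasl1, Oas3, Oas1a, Oasl2, Oas2, Oas1g, Oas1b and Oas1c in young cultures. Oasl2 thus went from the lowest place to the fourth, at 38.4 ± 8.37 CPM per kb, and its libraries overlapped those of Oas1a above it (38.6 ± 2.61) and of Oas2 below it (33.8 ± 4.25). In aged cultures Oas2 (19.7 ± 3.19) and Oasl2 (14.6 ± 7.60) exchanged places, again with overlap. Oasl1 stood apart from the gene ranked second in all 4 groups, and Oas1c was the lowest gene under LPS at both ages, at 1.76 ± 0.330 and 1.19 ± 0.324 CPM per kb.

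**Figure D4:**
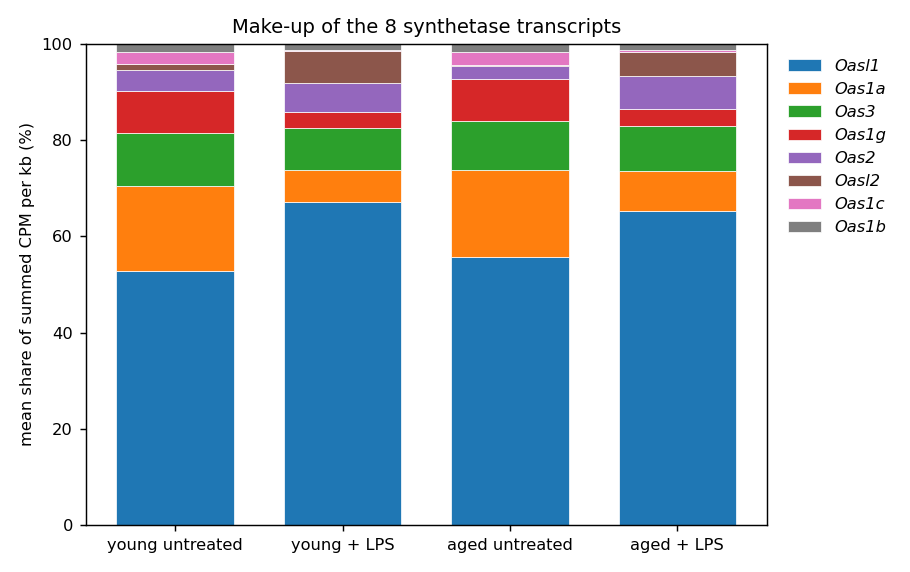
Mean share of each OAS gene in the summed CPM per kb of the 8 genes (%), by group of 5 libraries. Oasl1 holds the largest part of every bar, and the Oasl2 share widens from 1.28% to 6.73% in young and from 0.270% to 4.96% in aged cultures with LPS.

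Among further OAS genes and genes around 2-5A (Pde12, Akap7, Abce1, Oas1d, Oas1e, Oas1f and Oas1h), 3 of 7 were tested. LPS raised 1 and lowered 2 of them in young cultures, where 31.2% of all genes tested rose and 33.5% fell. It raised 1 and lowered 1 in aged cultures, where 27.5% of all genes tested rose and 26.9% fell. Oas1e, Oas1f and Oas1h had 0 reads in all 20 libraries, and Oas1d had at most 5 reads in any library. LPS lowered Akap7, which can degrade 2-5A, by a log2 value of -0.93 ± 0.217 in young (adjusted p = 0.000699) and -0.61 ± 0.212 in aged cultures (adjusted p = 0.0185, lost without batch 1 at 0.095). Pde12, a phosphodiesterase that degrades 2-5A, fell by 0.216 ± 0.0425 on the log2 scale in young cultures (adjusted p = 0.000117), and its value in aged cultures was -0.0401 (adjusted p = 0.444), or -0.200 and called when scaled by library sizes alone. Under LPS Pde12 was higher in aged than in young cultures by 0.175 ± 0.0427 (adjusted p = 0.00345, beside 14.0% of all genes called higher). Abce1, which is known for recycling ribosomes, rose with LPS by 0.268 ± 0.0393 in young and 0.179 ± 0.0392 in aged cultures, values of 0.0473 and 0.019 that did not pass when scaled by library sizes alone. In untreated cultures Abce1 was higher in aged cells by 0.156 ± 0.0392 (adjusted p = 0.012), without the filter on low counts 0.159 (adjusted p = 0.0593), and not called without batch 2 or 4.

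A list of double-stranded RNA sensors that act beside the synthetases mostly followed the same direction. It also holds genes that are not sensors, namely the adaptor Mavs, the TRIF gene Ticam1 and the RNA editor Adar. Of 9 tested, LPS raised 8 in both young and aged cultures and lowered 1, the adaptor Mavs, and under LPS 8 were lower in aged cultures, with a median log2 fold change of -1.24. Over all genes tested, LPS raised 31.2% in young and 27.5% in aged cultures, and 15.0% were lower in aged cultures under LPS. These include the kinase PKR (Eif2ak2, -0.678 ± 0.0973), the RNA editor Adar (-0.529 ± 0.0616), RIG-I (Ddx58, -1.35 ± 0.165) and the TRIF gene Ticam1 (-0.500 ± 0.108). Ifih1, which encodes MDA5, showed the widest gap. It had 0 reads in all 5 aged untreated libraries and 0 to 5 in the young ones, and under LPS 2 to 11 reads in aged against 145 to 201 in young cultures, a 31.6-fold difference (log2 -4.98 ± 0.278, adjusted p = 8.72e-10). In untreated cultures 2 of the 9, Ifih1 and Ddx58, were called lower in aged cells, beside 7.81% of all genes. The difference in LPS response passed for 1, Adar, at -0.478 ± 0.0886 (adjusted p = 0.00202), beside 2.27% of all genes called in this direction.

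In the type I interferon axis 10 of 11 genes were tested. Ifnb1, encoding interferon-beta, was not, with 0 reads in all untreated libraries, 1 to 7 per library (20 in all) in young and 0 to 4 (10 in all) in aged LPS-treated cultures. LPS raised 9 of the 10 in young and 8 in aged cultures (31.2% and 27.5% of all genes), and under LPS 9 were lower in aged than in young cells (15.0% of all genes, median -0.474), among them Stat2 (-1.34 ± 0.191) and Irf7 (-1.15 ± 0.208). Untreated, 4 were lower in aged cells (7.81% of all genes), namely Ifnar1, Tyk2, Irf3 and Irf7. Stat2 was the 1 gene whose LPS response differed, by -1.225 ± 0.301 on the log2 scale (adjusted p = 0.0155). All 13 other interferon-stimulated genes on the list rose with LPS at both ages and were lower in aged cells under LPS (median -1.64, from -2.27 for Mx1 to -0.656 for Bst2), beside the same shares of all genes. Untreated, 5 of them were called lower in aged cells (7.81% of all genes), namely Isg15, Ifit1, Rsad2, Cmpk2 and Rtp4. These calls rest on few reads per aged untreated library: 3 to 7 for Isg15, 2 to 5 for Ifit1, 3 to 20 for Rsad2, 1 to 5 for Cmpk2 and 1 to 2 for Rtp4. The difference in response passed for 1 of the 13, Ifit2 (-1.30 ± 0.343, adjusted p = 0.0246, beside 2.27% of all genes). It was above 0 for 10 of the 13 and below 0 for 3, with a median of 1.3, and was 2.63 ± 0.810 for Rtp4 (adjusted p = 0.0549) and 2.44 ± 0.894 for Rsad2 (adjusted p = 0.116). In 5 of the 13 genes, among them Rtp4 with 1 to 2 reads, all aged untreated libraries were at or below 3 reads. The fitted differences of these genes therefore depend on the prior count of the fit, a setting apart from that of log2 CPM. Untreated young culture 1 was the highest of its group in 11 of these 13 genes and LPS-treated aged culture 3 in 13 of 13, the same libraries that stood highest for most OAS genes.

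The genes whose log2 CPM followed each OAS gene most closely over the 20 libraries were taken as the 3 with the highest Pearson's r. For Oasl2 these were Isg15, Gbp7 and Parp14 (r = 0.996, 0.996 and 0.995), for Oas3 Helz2, Tor3a and Slfn8 (0.997, 0.997 and 0.996) and for Oas2 Xaf1, Irf9 and Daam1 (0.995, 0.994 and 0.992). Oasl1 was closest to Pik3r5, Irgm1 and Cpeb4 (0.997, 0.996 and 0.996), and Irgm1 was also among the 3 closest to Oas1a (0.994) and Oas1g (0.988). Oas1c had the loosest match, with Gm12250 at 0.962. All points share the same libraries, and most of their spread is the step between untreated and LPS-treated cultures.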

How the data were processed

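Poly(A) RNA of 20 BV-2 cultures, 5 per group, was sequenced from stranded libraries. Per the paper and labels, reads were aligned with STAR against GRCm38, and featureCounts tallied them by gene. The deposited values are raw counts per Ensembl gene, without normalization. The submitters' processing notes name STAR 2.6.1d, featureCounts 1.5.1 and FastQC 0.11.8, and list GRCh38 and hg19 as further builds. The options of featureCounts on strand, multi-mapped reads and overlaps are not given in the sources used here. Columns were matched to samples by name, and 0 sample columns were left out. Of 55487 identifiers, 55141 matched a gene name. Symbols, positions, exon lengths and transcripts came from GENCODE M21.

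The OAS genes and all gene lists were chosen with earlier results of these data known. The text names all 8 OAS genes, genes of the fixed lists (2 of which are not reported here) and per OAS gene the 3 genes with the highest r.

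Differences were tested in edgeR 4.0.16 (R 4.3.3) by the quasi-likelihood F-test, fitted to the 20 libraries by group alone after TMM scaling and filterByExpr, with Benjamini-Hochberg adjustment over 12799 genes and a threshold of 0.05. All adjusted p-values in the text come from it unless another tool is named. CPM uses TMM-scaled library sizes, log2 CPM a prior count of 2, and CPM per kb the summed exon length. SE is the log2 fold change divided by the square root of F, and 95% intervals use the t quantile at the test's degrees of freedom. DESeq2 1.42.0, other scalings, no filter, only the groups compared, the replicate block and leaving out libraries were alternatives. On counts simulated for the untreated comparison of aged and young cultures, with 200 genes changed 2-fold, edgeR recovered 177 with 9 false calls in a fit of 12644 genes. Simulated levels were means over all 20 libraries, LPS-treated ones included. The recovery therefore does not describe genes that are low when untreated and raised by LPS, such as Oasl2.

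Replicate numbers of the sample titles were used as batch numbers, each with 1 culture per group, and were taken to pair the cultures. Same-numbered libraries deviated together weakly (mean r = 0.146, from -0.214 to 0.394 over 30 pairs). Untreated and LPS-treated libraries of the same age had r of 0.122 to 0.394. Pairs of a young with an aged library had r of -0.214 to 0.275, below 0 for every such pair of replicate 1. Differences between the ages within batches thus rest on a weaker pairing than those between treatments. Batches are taken as separate cultures; where they were not, p-values measure only the spread between these samples.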

Additional observations from a re-analysis of the deposited data

Results flagged for a closer look

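Over 32 groups of 5 libraries, Dixon's test was applied to the level of each OAS gene, and chance flags about 1 in 20 groups. The level of Oasl2 in LPS-treated aged culture 3, 179 CPM, stood far above the other 4 of its group (63.2 to 82.1 CPM). The level of Oasl1 in untreated aged culture 3, 24.3 CPM, stood far below the other 4 (30.4 to 32.9 CPM). The LPS response of Oasl1 differed between the ages by -0.745 on the log2 scale in the interaction test.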

How the results depend on the processing

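All 8 OAS genes rose with LPS at both ages under every alternative run, and 7 of them were called lower in aged cultures under LPS under all 14 settings. Oas1c was below 0 there under all 14 (log2 fold change from -0.716 to -0.387) but called under only 7. The median LPS response of the 8 genes in young cultures was 3.8 when scaled by library sizes alone, against 4.02. The count called lower in untreated aged cultures, 2, ranged from 0 to 2 over the fits that leave out a replicate number, and was 1 without untreated young culture 1. The count called in the interaction, 1, ranged from 0 to 3 likewise, and was 2 without LPS-treated aged culture 3. The difference in response of Oas1c ran from -0.547 to 0.0486 over the same fits, above 0 without replicate 2 and called in none. The cause was not tested. With the replicate block, the called counts of the 8 genes stayed 2, 8, 8, 8 and 1, the median under LPS was -0.906, and the pairing changed no call of an OAS gene. Over all genes, the calls fell without replicate 2 from 1475 to 548 (untreated), from 3717 to 2156 (under LPS) and from 818 to 189 (interaction), the last also to 532 and 410 without replicates 4 and 5. Scaling by library sizes alone moved the share of calls that were higher from 32.2% to 42.2%, from 48.3% to 70.1% and from 64.4% to 81.3% in these 3 comparisons. Fitting only the groups compared was not run for the interaction, which uses all 4. Depth limits Oasl2 (2 to 9 reads in aged untreated libraries), Oas1b and Oas1c most.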
